A study of Mus musculus with 24 samples.

Results

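Kinesins are motor proteins that turn ATP into movement along microtubules, or into the loss of microtubule ends. A set of them works mainly when a cell divides, where they push the spindle poles apart, move chromosomes and finish cytokinesis. These are made mainly by cells in the late cell cycle, so their RNA is low in cells that have stopped dividing. Others carry vesicles, mitochondria, endosomes and ciliary cargo at all times, and in developing muscle kinesin-1 also spaces the nuclei. The genes described here are the 41 of 46078 genes in the deposited RNA-seq tables whose symbol is that of a kinesin heavy chain. They were chosen by symbol alone (Kif and a number, with or without a letter, and Kifc1, Kifc2 and Kifc3), a rule that uses no measured value but was set with earlier results of these data known. By textbook role, 13 were classed as mitotic, 15 as transport and 13 as having other roles.

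RNA-seq of total RNA was deposited for 16 mouse samples in 4 groups of 4. In culture, primary myoblasts grown from satellite cells of uninjured muscle were kept proliferating. They came from C57BL/6 mice 2 to 4 months old that carried Chd4fl/fl alleles in every sample, and RNA was taken 72 hours after an adenovirus for Cre (AdCRE) or for GFP (AdGFP). The muscle groups were Chd4dPax7ER and Chd4fl/fl, both C57BL/6 and 2 to 4 months old. Their muscle had been injured with cardiotoxin 3 days earlier, and satellite cells were sorted as cells negative for SCA1 and CD45 and positive for α7-integrin and CD34. Chd4 is a nucleosome-remodelling ATPase of the NuRD complex, and the 2 comparisons ask what changes in satellite cells and their myoblasts when it is lost. In culture the AdCRE virus alone carried Cre, so effects of Cre and of Chd4 loss cannot be told apart. The Chd4dPax7ER label names Pax7 as the driver, and whether Chd4fl/fl mice carried a Cre or were treated alike is not stated in the labels. The labels do not say that replicates were separate animals or cultures, so p-values speak only of the spread among these samples, which may be technical.

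Chd4 averaged 20.8 ± 3.49 RPKM in AdCRE and 75.1 ± 7.75 RPKM in AdGFP cultures, and 56.7 ± 8.37 RPKM in Chd4dPax7ER and 126 ± 6.77 RPKM in Chd4fl/fl cells (SD, n = 4 each). The groups did not overlap in either setting (limma adjusted p = 0.00374 in culture and 0.000152 in muscle). Values per library summed to between 286802 and 326812 RPKM, and RPKM (reads scaled by gene length and library size) does not keep the number of reads. Replicate 1 stood apart in culture: it had the lowest mitotic kinesin level in both groups, and 8 kinesin values in it lay far from the other replicates of their group. Sorted Chd4dPax7ER cells held more RNA of mature myofibre markers, with 8 of 8 tested markers higher. These markers summed to 946 to 2647 RPKM in Chd4dPax7ER and 273 to 562 RPKM in Chd4fl/fl cells. Pvalb and Myh2 were listed at 0 in 2 and 3 of the 4 Chd4fl/fl libraries. Neither could meet the filter (at least 0.5 RPKM in at least 4 libraries) without Chd4dPax7ER libraries, so the filter favoured a rise in them. Fibro-adipogenic markers summed to 116 to 214 RPKM in Chd4dPax7ER and 26.5 to 34.7 RPKM in Chd4fl/fl cells, and 3 of 5 tested rose. Of all genes tested in muscle, 14.7% rose. In such bulk samples, fewer cells of a type and less RNA per cell cannot be told apart.

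The promoters of the mitotic genes had sequence features that the transport genes mostly lacked. Of the 41 kinesins, 32 had a window in RefSeq's GRCm38.p6 promoter table, which runs from 250 bases before to 50 bases after an annotated start. Those without one were Kif20a, Kif5a, Kif5b, Kif13b, Kifc2, Kifc3, Kif19a, Kif21b and Kif28. The 12 mitotic genes with a window thus hold Kif2b, which had no RNA here, and not Kif20a. Each window was searched on both strands for the letters of the cell cycle genes homology region (CHR), TTTGAA or TTCGAA, an element known from promoters of genes used in late cell cycle. A gene with several windows counts once, if any of them holds the letters. The annotated start was not always at the outer end of the gene. It lay well inside the gene for Kif2c, Kif14, Kif26a, Kif27 and Kif3a, and for the Kif1a window with a match. These windows may thus not be the main promoter. These letters stood in 10 of 12 mitotic genes (83.3%), 1 of 10 transport genes (10%) and 3 of 10 genes of kinesins with other roles (30%). Of all 27025 genes in the promoter table, 21.7% had them. The letters CCAAT, a box often found with the CHR, stood in 8 of 12 mitotic genes (66.7%), 3 of 10 transport genes (30%) and 41.1% of all genes. Both together were in 7 of 12 mitotic genes (58.3%), in 0 of 10 transport genes, and in 9.65% of all genes. These features were not particular to kinesins. Of 21 other cell division genes with a window (the mitotic partners described below), 71.4% had the CHR letters and 66.7% had both. A match says only that the letters are there, and no binding was measured.

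Between 70 bases before and 30 bases from the start, 8 of 12 mitotic genes had a CHR match, against 6.32% of all genes in the table; this stretch was set after the matches had been seen. The 100-base stretches of those 8 genes follow, 5′ to 3′ on the gene's own strand, so that the bases around each match can be read. The search rule itself set that the letters are alike and near the start, and mitotic genes without a match there are not printed. Kif1c and Kif3a, transport kinesins with no match, are given last as a contrast. The start used for Kif3a lay well inside its gene, so its stretch may not be from the main promoter. Capitals mark the CHR letters, which read TTTGAA on the gene's strand or TTCAAA where the match is on the opposite strand, and coordinates are those of GRCm38.p6.
Kif11, chr19:37376312-37376411, plus strand: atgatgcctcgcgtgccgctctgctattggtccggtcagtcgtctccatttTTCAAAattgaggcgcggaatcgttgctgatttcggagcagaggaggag
Kif15, chr9:122951011-122951110, plus strand: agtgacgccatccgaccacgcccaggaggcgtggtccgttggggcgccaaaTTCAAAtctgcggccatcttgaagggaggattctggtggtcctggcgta
Kif22, chr7:127042391-127042490, minus strand: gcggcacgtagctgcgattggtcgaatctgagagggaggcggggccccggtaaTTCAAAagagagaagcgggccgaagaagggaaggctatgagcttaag
Kif4, chrX:100625995-100626094, plus strand: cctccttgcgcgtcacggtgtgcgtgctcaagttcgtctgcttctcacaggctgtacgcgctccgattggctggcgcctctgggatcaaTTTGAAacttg
Kif20b, chr19:34922288-34922387, plus strand: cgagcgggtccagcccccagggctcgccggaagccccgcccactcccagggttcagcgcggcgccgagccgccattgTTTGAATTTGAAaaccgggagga
Kif23, chr9:61946770-61946869, minus strand: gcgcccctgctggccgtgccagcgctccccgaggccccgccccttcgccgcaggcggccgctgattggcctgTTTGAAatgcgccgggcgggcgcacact
Kif18b, chr11:102925095-102925194, minus strand: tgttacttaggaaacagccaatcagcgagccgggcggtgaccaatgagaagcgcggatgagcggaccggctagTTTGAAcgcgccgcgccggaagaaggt
Kifc1, chr17:33890604-33890703, minus strand: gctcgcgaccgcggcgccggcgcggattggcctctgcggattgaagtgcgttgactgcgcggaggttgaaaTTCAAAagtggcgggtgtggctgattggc
Kif1c, chr11:70700478-70700577, plus strand: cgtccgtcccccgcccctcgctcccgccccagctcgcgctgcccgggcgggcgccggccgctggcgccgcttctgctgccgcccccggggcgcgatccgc
Kif3a, chr11:53567299-53567398, plus strand: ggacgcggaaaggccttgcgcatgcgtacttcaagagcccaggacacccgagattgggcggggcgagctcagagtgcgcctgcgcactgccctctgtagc
Kif20b held the letters in tandem, with first bases at positions 8 and 14, while Kif11 and Kif15 each had a match whose first base lay at position -19. Matches further out were those of Kif2c (position -103), Kif14 (position -228) and a further one each in Kif15 and Kif22. In Kif18a and Kif2b these letters were not found in the window. Among the rest, Kif1a had 1 match in 1 of its windows, and Kif24, Kif26b and Kif27 held matches too.

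**Figure D1:**
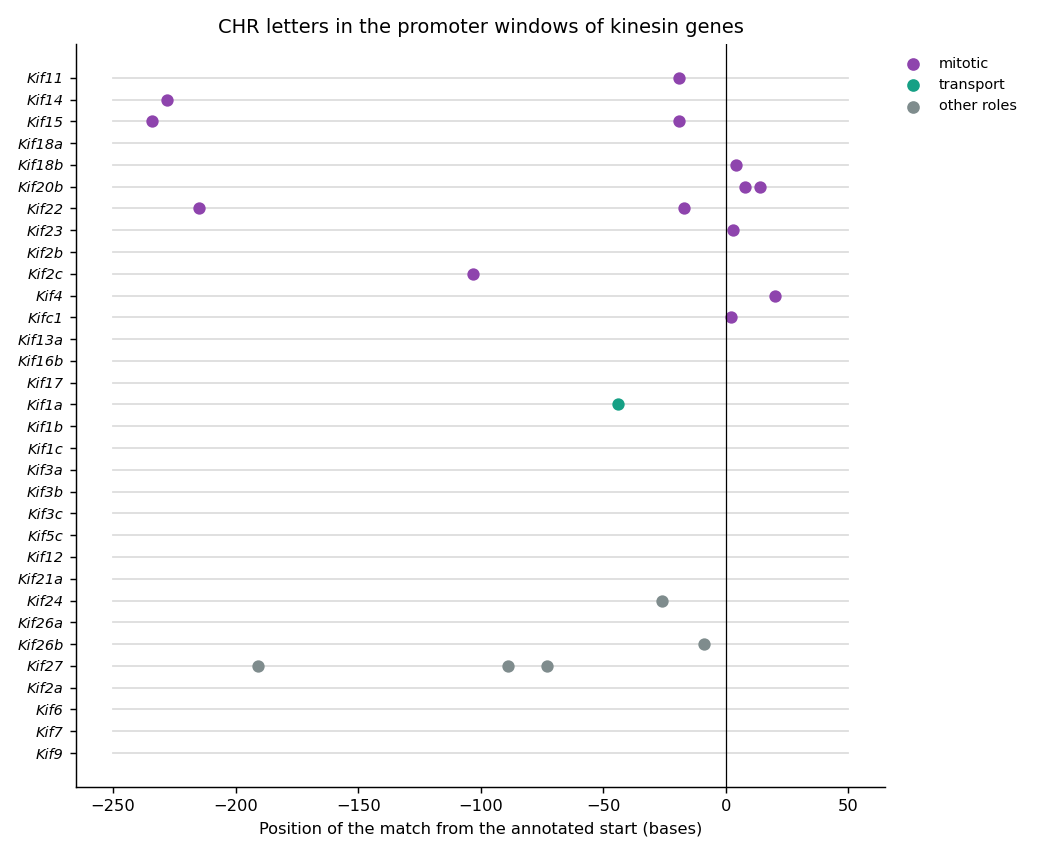
Positions of CHR letters in the promoter windows of 32 kinesin genes, with the gene down the page and bases from the annotated start across it; each grey line is the window searched and each point the first base of a match. Matches were in 10 of 12 mitotic genes and 1 of 10 transport genes that had a window.

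In cultured myoblasts, all 12 mitotic kinesins that were tested were lower with AdCRE in each of the 4 same-numbered pairs. Of all genes tested, 27.1% were lower in all 4 pairs. The summed level of the mitotic class was 55.5, 101, 133 and 169 RPKM in AdCRE replicates 1 to 4, against 121, 166, 205 and 269 RPKM in AdGFP replicates 1 to 4. Each AdCRE culture thus stood at 45.7, 61.1, 64.9 and 62.8% of its same-numbered AdGFP culture. The ranges of the groups overlapped, and AdCRE replicate 4 was above AdGFP replicates 1 and 2.

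The test depended on that pairing. With limma on log2(RPKM + 0.5), adjusted over all 13567 genes tested and without pairing, 0 of 31 kinesins passed an adjusted p of 0.05, beside 0.656% of all genes. Of the 31, 7 had an unadjusted p under 0.05, 3 of them mitotic. When same-numbered cultures were paired by a replicate block, which their correlations call for, 22 of 31 kinesins passed, and 36.2% of all genes. In that fit 12 of 12 mitotic kinesins fell, beside 18.7% of all genes. Their log2 fold changes ran from -0.93 for Kif15 to -0.53 for Kif14, with a median of -0.75, and the median of all genes tested was -0.01. Without replicate 1 the block fit again called 22 kinesins and 12 mitotic ones, with a median of -0.65; without AdCRE replicate 1 alone and no block, the median was -0.43.

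**Figure D2:**
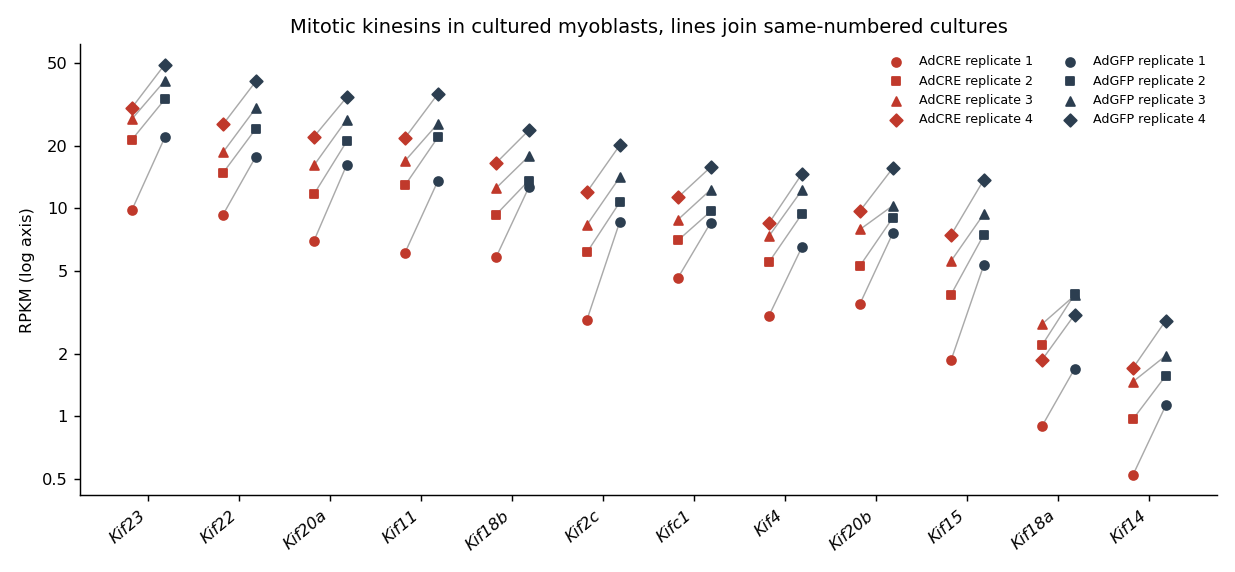
RPKM on a log axis of the 12 mitotic kinesins tested in cultured myoblasts, AdCRE (red) left of AdGFP (dark), with grey lines joining same-numbered cultures. Each line rises to the right, while the ranges of the groups overlap for each gene.

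Motors that build and hold the spindle had lower RNA in every AdCRE culture than in its pair. Kif11, which slides antiparallel microtubules apart to separate the poles, measured 6.12, 12.9, 16.9 and 21.8 RPKM in AdCRE cultures, against 13.5, 21.9, 25.5 and 35.4 RPKM in AdGFP cultures. The order of the replicates was the same in both groups. Its log2 fold change was -0.77, with a limma adjusted p of 0.405 (SE 0.40) without the block and 0.000817 (SE 0.08) with it. Kif15, which helps Kif11 keep the spindle bipolar, was at 1.86, 3.85, 5.58 and 7.44 RPKM in AdCRE and 5.33, 7.47, 9.39 and 13.7 RPKM in AdGFP cultures. Its fold change of -0.93 was the lowest of the 31 kinesins tested in culture (limma with the block, adjusted p = 0.000817). Kifc1, a minus-end motor that gathers the poles, had the ratio closest to 1 in the class, at 68.6% of the AdGFP mean. It stood at 4.64, 7.02, 8.83 and 11.3 RPKM in AdCRE cultures, against 8.55, 9.68, 12.3 and 15.8 RPKM in AdGFP cultures, and passed with the block (log2 fold change -0.54, limma adjusted p = 0.0019). Kifc5b is a close copy of Kifc1 with a symbol outside the rule, and reads may have been split between them, so the level of Kifc1 is uncertain.

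Motors on chromosomes and kinetochores followed the same pairs. Kif22, a chromokinesin that pushes chromosome arms away from the poles, had 9.32, 14.8, 18.6 and 25.3 RPKM in AdCRE and 17.7, 24.1, 30.3 and 40.7 RPKM in AdGFP cultures. It had the smallest adjusted p among the kinesins with the block (log2 fold change -0.73, SE 0.05, limma adjusted p = 0.000232), and 0.337 without it. Kif4, the chromokinesin that works with Prc1 at the midzone, measured 3.05, 5.52, 7.36 and 8.50 RPKM in AdCRE and 6.49, 9.37, 12.2 and 14.6 RPKM in AdGFP cultures. Its 4 pair ratios lay between 46.9 and 60.1% (log2 fold change -0.78, limma adjusted p = 0.000354 with the block). Kif2c, which removes wrongly attached microtubules from kinetochores, was at 2.92, 6.15, 8.34 and 12 RPKM in AdCRE, against 8.62, 10.7, 14.1 and 20.1 RPKM in AdGFP cultures. Its replicate 1 pair had the lowest ratio of any mitotic kinesin, 33.9%, and its other pairs lay between 57.5 and 60.0% (log2 fold change -0.90, limma adjusted p = 0.0019 with the block). Kif18a, which damps the swings of chromosomes at the metaphase plate, had 0.899, 2.20, 2.78 and 1.87 RPKM in AdCRE and 1.70, 3.87, 3.82 and 3.09 RPKM in AdGFP cultures. Here replicate 4 was not the highest, unlike in the other 11 mitotic kinesins, yet its pair ratio of 60.5% was like theirs (limma adjusted p = 0.00165 with the block).

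Motors of cytokinesis included the most abundant mitotic kinesin of AdGFP cultures. Kif23, which with Racgap1 forms the centralspindlin complex at the midzone, measured 9.84, 21.4, 26.9 and 30.5 RPKM in AdCRE cultures, against 21.9, 33.4, 41.0 and 49.1 RPKM in AdGFP cultures (log2 fold change -0.76, limma adjusted p = 0.00109 with the block). Kif20a, which brings the chromosomal passenger complex to the midzone, was at 6.99, 11.7, 16.1 and 22.1 RPKM in AdCRE and 16.2, 21.0, 26.7 and 34.2 RPKM in AdGFP cultures (log2 fold change -0.83, limma adjusted p = 0.000817 with the block). For both, AdCRE replicate 4 was above AdGFP replicate 1. Kif20b, needed late in abscission, had 3.48, 5.30, 7.92 and 9.72 RPKM in AdCRE and 7.59, 9, 10.3 and 15.6 RPKM in AdGFP cultures (limma adjusted p = 0.00242 with the block). Kif18b, which trims astral microtubules, and Kif14, a partner of Prc1 in cytokinesis, averaged 65.2% and 61.8% of their AdGFP means and passed with the block. Kif2b was listed at 0 in all 16 libraries of both settings.

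RNA of other genes of cell division moved with that of the motors. The 25 mitotic partners are a list of kinases, cyclins, kinetochore and midzone proteins, and other cell cycle genes such as Mki67, Foxm1 and Mybl2. Of these, 0 passed limma without the block (9 had an unadjusted p under 0.05). With it all 25 partners fell, beside 18.7% of all genes. Their median log2 fold change was -0.71, beside -0.75 for the mitotic kinesins. The 8 with the smallest p with the block were Cdc20, Cdca8, Mybl2, Incenp, Bub1b, Cdk1, Aurkb and Mki67. Among them was Cdc20, the activator of the anaphase-promoting complex, at 31.0 ± 12.2 RPKM in AdCRE and 49.0 ± 17.2 RPKM in AdGFP cultures (SD, n = 4 each). Cdca8, of the chromosomal passenger complex, was at 5.63 ± 1.90 RPKM in AdCRE and 9.38 ± 2.91 RPKM in AdGFP cultures. The myofibre markers, genes of differentiated muscle, summed to 1142 to 4438 RPKM in AdCRE and 885 to 3611 RPKM in AdGFP cultures. Without the block, 0 of 9 passed limma (0 had an unadjusted p under 0.05). With it 7 of 9 rose, beside 17.5% of all genes. Replicates with high myofibre sums (2 and 3) were not those with the lowest mitotic sums (1), and the part of these markers in the mitotic result was not tested.

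Transport kinesins summed to a slightly higher level with AdCRE, while their members did not all move this way. Their summed level was 211, 211, 212 and 201 RPKM in AdCRE and 192, 184, 188 and 185 RPKM in AdGFP cultures, so the sums did not overlap, and the AdCRE mean was 112% of the AdGFP mean. With the block, 5 of 13 tested rose (Kif1a, Kif5c, Kif1c, Kif13b and Kifc2), beside 17.5% of all genes. Of the rest, 1 fell (Kif13a) and 7 did not pass. The median log2 fold change of the 13 was 0.13. Of the 31 kinesins tested in culture, 0 had AdCRE and AdGFP values that did not overlap, beside 10.0% of all genes.

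Kif1a, the axonal motor for precursors of synaptic vesicles, had the largest fold change among the kinesins. It measured 21.8, 7, 5.72 and 7.33 RPKM in AdCRE cultures, against 10.5, 2.05, 1.24 and 1.75 RPKM in AdGFP cultures. Replicate 1 was the highest in both groups, and AdGFP replicate 1 was above AdCRE replicates 2 to 4, which alone makes the groups overlap. The pair ratios were 208, 342, 461 and 418% (log2 fold change 1.55, limma adjusted p = 0.283 with SE 0.62 without the block, 0.000455 with SE 0.13 with it). It also passed the block fit with each pair left out. Of 7 Schwann cell and neuronal markers, 4 (Rbfox3, S100b, Snap25 and Sox10) were below 0.5 RPKM in every culture library. Tubb3 and Stmn2, the 2 tested, rose with the block, beside 17.5% of all genes. The sum of the list was lowest in replicate 1 of each group (11.7 RPKM in AdCRE and 5.93 RPKM in AdGFP), where Kif1a was highest. Like Kif1a, the sum was higher with AdCRE in each of the 4 pairs, and the part of these markers in the Kif1a values was not tested.

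The kinesin-1 family carries general cargo with its light chains. Kif5b, its ubiquitous heavy chain and the kinesin with the highest RPKM in each of the 4 groups, was at 63.2, 75.8, 72.6 and 64.8 RPKM in AdCRE and 59.3, 67.9, 61.3 and 63.5 RPKM in AdGFP cultures. These ranges overlap, and it did not pass with the block (log2 fold change 0.13, limma adjusted p = 0.0614). Kif5c, the heavy chain rich in neurons, had 4.86, 8.75, 8.85 and 9.33 RPKM in AdCRE and 3.87, 7.13, 6.80 and 7.28 RPKM in AdGFP cultures. Its 4 pair ratios were within 123 to 130%, and it passed with the block (log2 fold change 0.32, limma adjusted p = 0.0027) and in each block fit with a pair left out. Of 27 transport partners tested (light chains, adaptors, dynein and dynactin), 0 passed without the block (3 had an unadjusted p under 0.05). With the block 7 rose, beside 17.5% of all genes, and 1 fell, beside 18.7%. The median log2 fold change of the list was 0.06. Those that rose were the light chains Klc2, Klc3 and Klc4, the kinesin-1 adaptor Mapk8ip1 and the dynein subunits Dync1i1, Dync1li1 and Dync1li2, and Nde1, a dynein regulator, fell. Klc4 was at 7.80 ± 1.17 RPKM in AdCRE and 6.19 ± 1.34 RPKM in AdGFP cultures (SD, n = 4 each, limma adjusted p = 0.00439 with the block).

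Of the other transport motors, Kif1c, Kif13b and Kifc2 rose and Kif13a fell with the block. Kif13b and Kifc2 averaged 139% and 146% of their AdGFP means, each with a log2 fold change of 0.39. Kif3a, of the kinesin-2 motor that builds cilia, had 17.2, 15.5, 16.2 and 16.5 RPKM in AdCRE and 16, 14.4, 14.1 and 15.8 RPKM in AdGFP cultures (log2 fold change 0.12, limma adjusted p = 0.0692 with the block). Kif1b, which moves mitochondria and vesicles, was at 16.2, 16.1, 16.3 and 14.8 RPKM in AdCRE, against 16.1, 15.3, 15.2 and 14.8 RPKM in AdGFP cultures (log2 fold change 0.04, limma adjusted p = 0.47 with the block). Kif1c, Kif13b, Kifc2 and Kif13a passed in only 2, 1, 2 and 2 of the 4 block fits with a pair left out. Kif16b, Kif3b, Kif3c and Kifc3 did not pass, with fold changes between -0.07 and 0.14.

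Among kinesins with other roles, Kif26b, Kif21a and Kif21b rose with the block and Kif24 fell. Kif2a, a depolymerase that works at spindle poles and in neurites, was at 20.0, 20.3, 22.6 and 20.6 RPKM in AdCRE and 23.0, 22.4, 22.9 and 22.5 RPKM in AdGFP cultures. Though a relative of Kif2c, it was at 92.0% of its AdGFP mean and did not pass (limma adjusted p = 0.0692 with the block). Kif24, which takes apart microtubules at centrioles and holds back cilia, had pair ratios of 59.6, 75.3, 87.3 and 71.5% (log2 fold change -0.37, limma adjusted p = 0.011 with the block). Of the 4, Kif26b passed in each block fit with a pair left out, Kif24 in 3, Kif21b in 2 and Kif21a in 1. The 10 kinesins left out by the filter (at least 0.5 RPKM in at least 4 libraries) reached at most 0.413 RPKM.

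**Figure D3:**
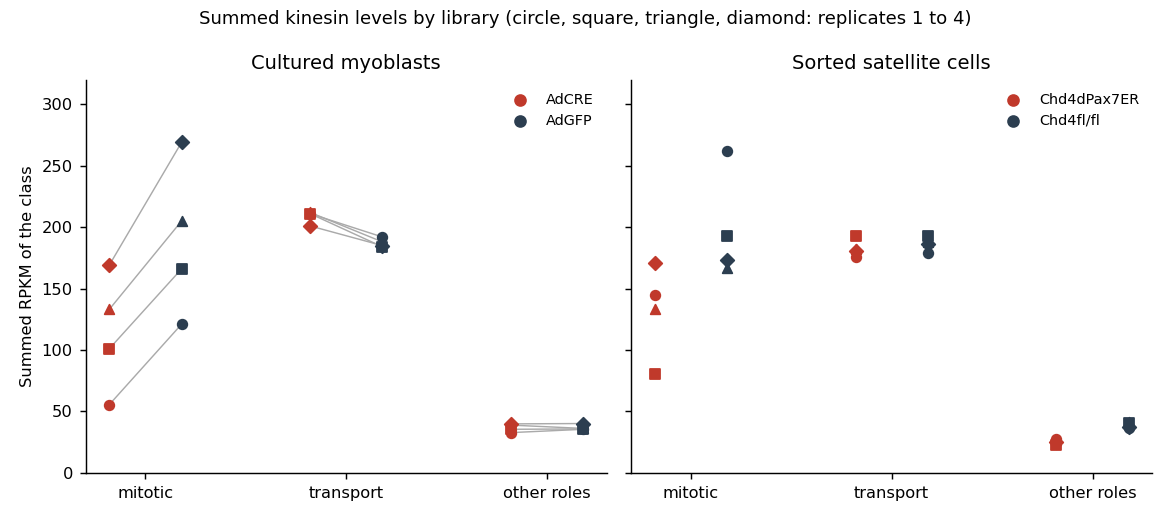
Summed RPKM of the mitotic, transport and other kinesins in each library, AdCRE left of AdGFP and Chd4dPax7ER left of Chd4fl/fl (red left of dark); lines join same-numbered cultures. In culture the mitotic sums averaged 60.2% of AdGFP and the transport sums 112%; in muscle the mitotic sums averaged 66.5% and the sums of kinesins with other roles 64.9% of Chd4fl/fl.

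In satellite cells of injured muscle, 8 of 28 kinesins tested passed limma without a block, beside 26.6% of the 13344 genes tested. Lower in Chd4dPax7ER cells were 3 mitotic kinesins (Kif11, Kif20b and Kif2c), Kif13a, Kif21a and Kif26b, and higher were Kif1c and Kif13b. Of all genes tested, 11.9% fell and 14.7% rose. With values scaled to a common sum (TPM scaling), 9 kinesins fell and 1 rose, and with quantile scaling 8 fell and 2 rose.

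Mitotic kinesins were lower on average here, and their sums overlapped between the groups. The class summed to 145, 80.6, 133 and 171 RPKM in Chd4dPax7ER cells, against 262, 193, 167 and 173 RPKM in Chd4fl/fl cells. Chd4dPax7ER replicate 4 lay within the Chd4fl/fl range, replicate 2 was the lowest of the 8, and Chd4fl/fl replicate 1 the highest. All 12 mitotic estimates were below 0, from -0.82 for Kif11 to -0.21 for Kifc1, with a median of -0.54 beside -0.02 for all genes. Chd4dPax7ER replicate 2 also had the highest myofibre sum (2647 RPKM) and Chd4fl/fl replicate 1 the lowest (273 RPKM); the part of these markers in the mitotic values was not tested. Without Chd4dPax7ER replicate 2 the median was -0.35.

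Kif11 measured 20.7, 14.0, 23.2 and 31.6 RPKM in Chd4dPax7ER cells and 52.2, 37.9, 32.3 and 33.8 RPKM in Chd4fl/fl cells. The groups did not overlap, but by a narrow margin at 31.6 and 32.3 RPKM (log2 fold change -0.82, SE 0.23, limma adjusted p = 0.0301). Kif20b was at 6.57, 3.72, 6.03 and 8.19 RPKM in Chd4dPax7ER and 14.0, 10.0, 10.4 and 8.44 RPKM in Chd4fl/fl cells (log2 fold change -0.78, limma adjusted p = 0.0311). Kif2c had 6.25, 5.05, 6.34 and 7.72 RPKM in Chd4dPax7ER and 16.8, 9.43, 7.53 and 10.1 RPKM in Chd4fl/fl cells, with 1 value of each group inside the range of the other (log2 fold change -0.70, limma adjusted p = 0.0461). Kif15 did not overlap either, at 10.5, 4.76, 9.75 and 11.2 RPKM in Chd4dPax7ER against 19.8, 13.5, 15.1 and 12.5 RPKM in Chd4fl/fl cells, with an adjusted p of 0.0515 (limma). Non-overlapping groups, lower in Chd4dPax7ER cells, were found for 3 of 12 mitotic kinesins, beside 14.3% of all genes; in either direction they were found for 9 of 28 kinesins, beside 30.3%.

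These 3 mitotic calls rested on the libraries present. Leaving out Chd4fl/fl replicate 1 or replicate 2 left 0 mitotic kinesins called, leaving out Chd4dPax7ER replicate 1, 2 or 3 left 1, and leaving out Chd4dPax7ER replicate 4, the library nearest to the Chd4fl/fl values, gave 5. Without the filter on low values all 3 missed the threshold, with adjusted p between 0.0569 and 0.0817. Kif23 was at 21.7, 10.5, 17.6 and 24 RPKM in Chd4dPax7ER and 31.3, 28, 21.8 and 21.3 RPKM in Chd4fl/fl cells, and did not pass (log2 fold change -0.51, limma adjusted p = 0.152). Kifc1 had 4.75, 3.45, 4.94 and 6.79 RPKM in Chd4dPax7ER and 7.97, 5.15, 4.99 and 5.12 RPKM in Chd4fl/fl cells, and its interval ran across 0 (log2 fold change -0.21, limma adjusted p = 0.496). Of the 25 mitotic partners, 8 fell (Numa1, Bub1, Cenpe, Bub1b, Mki67, Aurkb, Tpx2 and Anln), beside 11.9% of all genes. In this list 0 rose, and the median log2 fold change was -0.54. Cenpe, a kinetochore kinesin whose symbol is outside the rule, averaged 7.24 ± 1.92 RPKM in Chd4dPax7ER and 13.6 ± 2.99 RPKM in Chd4fl/fl cells (SD, n = 4 each, limma adjusted p = 0.0132). Mki67, the proliferation antigen, was at 40.5 ± 10.6 RPKM in Chd4dPax7ER and 66.4 ± 13.8 RPKM in Chd4fl/fl cells.

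**Figure D4:**
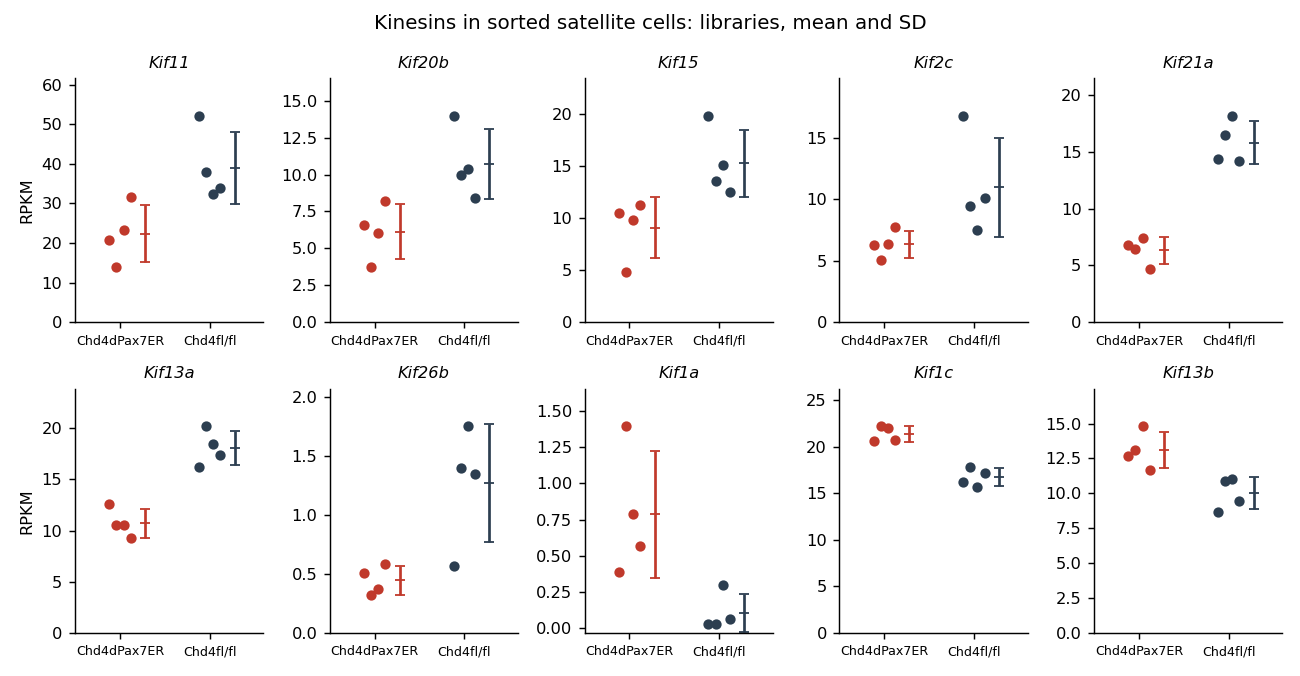
RPKM of 10 kinesins in sorted satellite cells, Chd4dPax7ER (red) left of Chd4fl/fl (dark); points are the 4 libraries of a group and bars the mean and SD. The groups do not overlap for Kif11, Kif20b, Kif15, Kif21a, Kif13a, Kif1a, Kif1c and Kif13b, and overlap for Kif2c and Kif26b.

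Kif21a changed most among the kinesins tested in muscle. It lowers the growth rate of microtubules at the cell cortex, and its human gene is mutated in a congenital fibrosis of the eye muscles. It measured 6.82, 6.41, 7.44 and 4.65 RPKM in Chd4dPax7ER cells, against 14.4, 16.5, 18.2 and 14.2 RPKM in Chd4fl/fl cells. Each Chd4dPax7ER value was well below each Chd4fl/fl value, and the mean was 40.0% of that of Chd4fl/fl cells (log2 fold change -1.27, SE 0.15, limma adjusted p = 0.000515). It passed with each library left out. In culture the same gene had 5.85, 4.61, 5.12 and 9.15 RPKM in AdCRE and 5.71, 3.29, 3.72 and 8.07 RPKM in AdGFP cultures, a log2 fold change of 0.26. The difference between the 2 fold changes was 1.53 (SE 0.34, 95% interval 0.80 to 2.26, limma adjusted p = 0.0236), and Kif21a was the only one of 28 kinesins to pass that test, beside 4.12% of the 11941 genes tested in both settings. Without AdGFP replicate 3 its adjusted p was 0.0541.

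Transport motors moved in both directions, and their sums overlapped. The class summed to 176, 193, 182 and 181 RPKM in Chd4dPax7ER and 179, 193, 188 and 186 RPKM in Chd4fl/fl cells. Kif13a, which carries the mannose 6-phosphate receptor and recycling endosomes, was at 12.6, 10.5, 10.5 and 9.25 RPKM in Chd4dPax7ER and 16.2, 20.2, 18.5 and 17.4 RPKM in Chd4fl/fl cells (log2 fold change -0.74, SE 0.11, limma adjusted p = 0.00177). Its relative Kif13b went the other way, with 12.7, 13.1, 14.8 and 11.7 RPKM in Chd4dPax7ER and 8.65, 10.9, 11 and 9.45 RPKM in Chd4fl/fl cells (log2 fold change 0.37, limma adjusted p = 0.0334). For both genes the groups did not overlap. Kif1c, a fast motor for long-range vesicle transport, had 20.6, 22.2, 22 and 20.7 RPKM in Chd4dPax7ER and 16.2, 17.8, 15.7 and 17.2 RPKM in Chd4fl/fl cells, with little spread in either group (log2 fold change 0.35, SE 0.07, limma adjusted p = 0.00755). Kif13a and Kif1c passed with each of the 8 libraries left out, and Kif13b in 3 of those 8 fits. Its call was lost without Chd4dPax7ER replicate 1, 2 or 3 and without Chd4fl/fl replicate 1 or 4 (adjusted p up to 0.0808), and with TPM scaling (0.0537).

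In culture the same 3 genes had fold changes of -0.24 for Kif13a, 0.39 for Kif13b and 0.19 for Kif1c, each with the sign seen in muscle. The 2 settings have separate samples and tables, so levels were not compared between them. Without the block, none of the 3 passed the test of the difference between settings (adjusted p of 0.092 for Kif13a, 0.974 for Kif13b and 0.483 for Kif1c). With the block Kif21a, Kif26b and Kif13a differed, 3 of the 28 kinesins, a smaller share than the 14.1% of all genes. That block was also set on the muscle samples, whose numbers do not pair. For Kif13a the limma adjusted p was then 0.0396, with log2 fold changes of -0.24 in culture and -0.74 in muscle.

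Kif1a was too low in muscle for the filter. It was listed at 0.39, 1.40, 0.79 and 0.57 RPKM in Chd4dPax7ER cells and at 0.03, 0.03, 0.30 and 0.06 RPKM in Chd4fl/fl cells, and the groups did not overlap. In the fit without the filter its log2 fold change was 1.05 (SE 0.26, limma adjusted p = 0.033). Schwann cell and neuronal markers were higher in the same group: 3 of 4 tested rose (Sox10, Tubb3 and S100b), beside 14.7% of all genes. Sox10 met the filter only through the Chd4dPax7ER libraries, so the filter itself favoured a rise in this count. The list summed to 19.6, 34.8, 21 and 20.6 RPKM in Chd4dPax7ER and 5.43, 7.88, 7.75 and 10.2 RPKM in Chd4fl/fl cells. Sox10, which defines Schwann and other neural crest cells, averaged 3.13 ± 0.926 RPKM in Chd4dPax7ER and 0.175 ± 0.132 RPKM in Chd4fl/fl cells (SD, n = 4 each), while Rbfox3, Snap25 and Stmn2 were below 0.5 RPKM in every muscle library. Chd4dPax7ER replicate 2 was highest for both Kif1a and the list, and the part of these markers in the Kif1a values was not tested. In bulk samples, RNA from such cells and the same RNA made in satellite cells cannot be told apart.

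Kif5b, Kif3a and Kif1b did not pass in muscle. Kif5b was at 62.8, 74.6, 70.0 and 70.4 RPKM in Chd4dPax7ER and 72.3, 73.2, 72.6 and 69.3 RPKM in Chd4fl/fl cells, a log2 fold change of -0.05 with a 95% interval of -0.20 to 0.10. Kif1b had 24.8, 32.7, 28 and 28.9 RPKM in Chd4dPax7ER, against 25.5, 27.8, 26.3 and 27.8 RPKM in Chd4fl/fl cells (log2 fold change 0.08, limma adjusted p = 0.522). Kif3a had 16.9, 14.7, 14.2 and 14.5 RPKM in Chd4dPax7ER and 15.8, 17.6, 19.2 and 18.9 RPKM in Chd4fl/fl cells, and missed the threshold (log2 fold change -0.24, limma adjusted p = 0.083; 0.0348 with TPM scaling). Kifap3, the subunit that joins the kinesin-2 motors to cargo, did fall, to 8.67 ± 1.13 RPKM in Chd4dPax7ER, against 16.6 ± 2.12 RPKM in Chd4fl/fl cells (log2 fold change -0.89, limma adjusted p = 0.00118). In muscle 11.9% of all genes tested fell and 14.7% rose. Of the 26 transport partners tested, 6 fell (Kifap3, Hook1, Nde1, Dync1li2, Dctn1 and Trak2) and 1 rose, with a median of 0.02. The one that rose was Mapk8ip1, a kinesin-1 adaptor, at 12 ± 0.911 RPKM in Chd4dPax7ER and 4.63 ± 0.953 RPKM in Chd4fl/fl cells (log2 fold change 1.30, limma adjusted p = 0.000314).

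Kif26b, a kinesin without motor activity that acts in Wnt5a signalling, had 0.51, 0.32, 0.37 and 0.58 RPKM in Chd4dPax7ER and 0.57, 1.40, 1.75 and 1.35 RPKM in Chd4fl/fl cells. Chd4fl/fl replicate 1 lay among the Chd4dPax7ER values (log2 fold change -0.86, limma adjusted p = 0.0366), and the call was kept only without that library, not without any of the other 7. Its fold changes differed between settings with the block (limma adjusted p = 0.0177) and not without it (0.202). That block was also set on the muscle samples, whose numbers do not pair. Kif2a was at 15.6, 11.6, 14.8 and 15.0 RPKM in Chd4dPax7ER and 17.6, 18.3, 17.1 and 16.9 RPKM in Chd4fl/fl cells, which did not overlap, and missed the threshold (log2 fold change -0.30, limma adjusted p = 0.0575; 0.0318 with TPM scaling and 0.0444 with quantile scaling). The 13 kinesins left out by the filter in muscle reached at most 1.40 RPKM, the value of Kif1a.

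**Figure D5:**
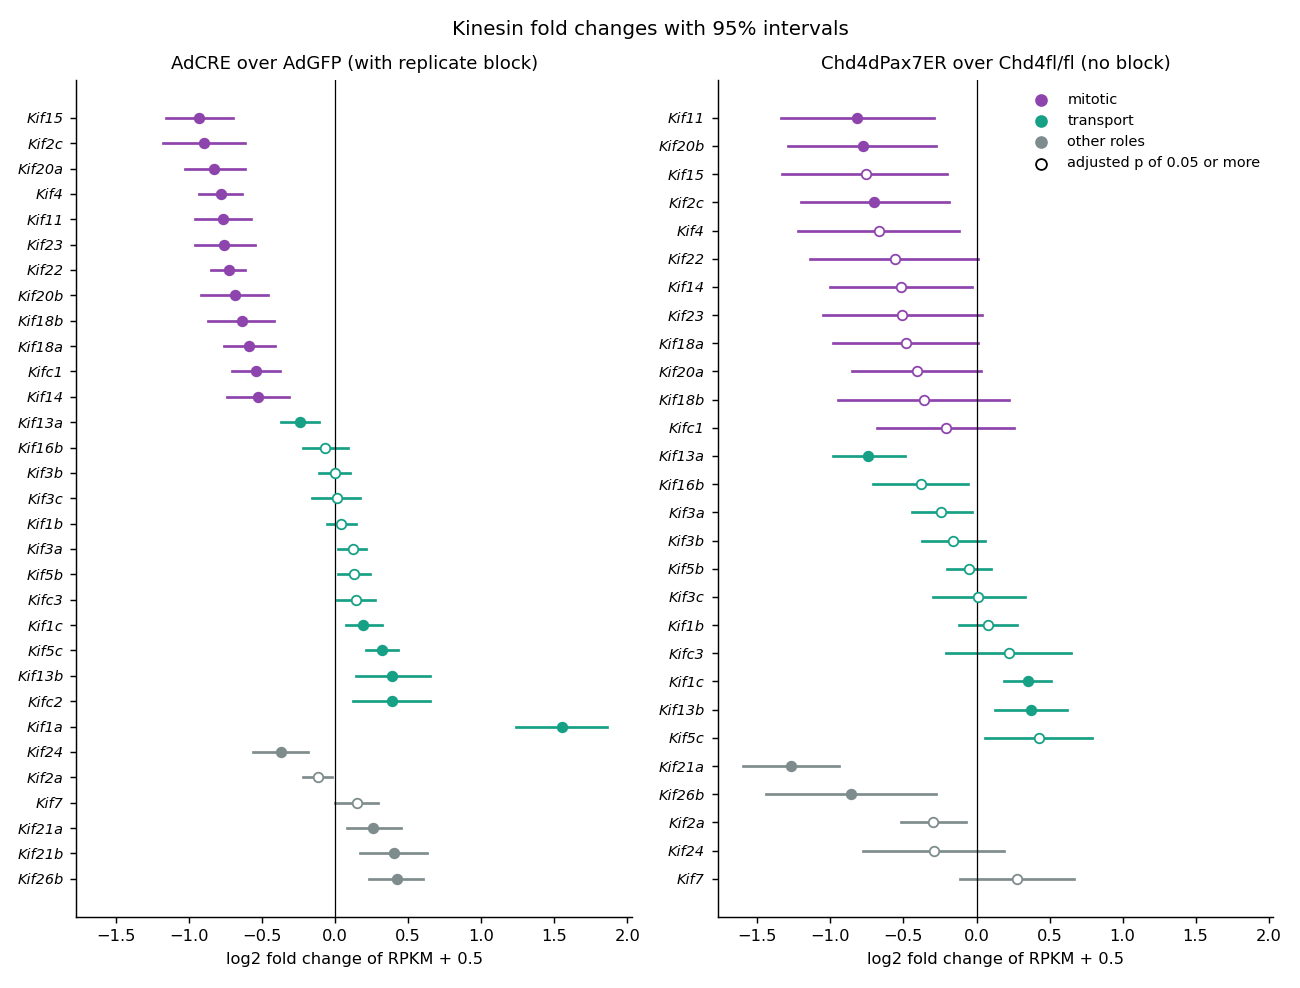
Log2 fold changes of RPKM + 0.5 with 95% intervals for 31 kinesins in culture (AdCRE over AdGFP, with the replicate block) and 28 in muscle (Chd4dPax7ER over Chd4fl/fl, no block), by class; open points did not pass an adjusted p of 0.05. The mitotic kinesins lie between -0.93 and -0.53 in culture and between -0.82 and -0.21 in muscle. Kif21a, Kif26b, Kif3a and Kif5b lie on opposite sides of 0 in the 2 settings. Of these, only Kif21a passed the test of the difference without the block.

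For the mitotic kinesins a difference between the 2 settings was not detectable gene by gene. None of the 12 passed the test of the difference, with or without the block. In the fit without the block the intervals are wide. For Kif11 the difference of the log2 fold changes was 0.05, with a 95% interval of -1.01 to 1.10. That fit leaves out the pairing of the cultures, which lowered the SE of Kif11 in culture from 0.40 to 0.08. An interval with the block may be narrower and is not given here. The lowest and highest estimates were -0.42 for Kif20a and 0.09 for Kif20b.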

How the data were processed

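Total RNA was sequenced in 16 samples; 8 ATAC-seq samples were not analysed here. The authors deposited one table of RPKM values per setting, with 46078 genes each; muscle values are rounded to 2 decimals. The submitters' processing notes name the aligner HISAT2 2.1.0, cutadapt 1.18, FastQC 0.11.8 and DESeq2 3.6 and the builds GRCm38 and mm10. What made the RPKM values was not given in the sources used here. Read depth cannot be taken from RPKM.

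Genes with at least 0.5 RPKM in at least 4 of 8 libraries were tested, 13567 in culture and 13344 in muscle, with limma 3.58.1 (R 4.3.3, statmod 1.5.0) on log2(RPKM + 0.5). Adjusted p-values are Benjamini-Hochberg over all genes tested. Fold changes on this scale understate changes of low genes. The fit was tested on simulated data. The difference between settings was the interaction in one fit of both tables. Where that fit had the block, it was set within each setting, muscle included.

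The labels number replicates alike across groups without saying what a number marks. In culture the deviations of same-numbered samples from their group means correlated at 0.852, 0.711, 0.72 and 0.856, so the numbers pair the samples, and the fit with the replicate block is given beside the one without it. In muscle the correlations were between -0.0967 and 0.0499, so they do not pair.

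Values in every library are given for kinesins that passed without the block, in culture also for the 12 with the smallest p with the block, and for Kif11, Kif23, Kif2c, Kifc1, Kif5b, Kif3a, Kif1b and Kif2a; Kif15 and Kif1a in muscle and Kif21a in culture were added after their values were seen. Of the partners that passed, up to 8 per list and setting are named, those with the smallest p. Of the list symbols, 1 (Kifbp) was matched by an older symbol. Members and lists were chosen with earlier results of these data known. Alternatives were other pseudocounts (0.1 and 1), no filter, scaling to a sum of 1000000 (TPM scaling), quantile scaling, no variance trend, and each library left out. 1 marker of the Schwann cell and neuronal list is not reported here.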

Additional observations from a re-analysis of the deposited data

Results flagged for a closer look

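In 118 groups of 4 values (each tested kinesin, in each group), 9 had 1 library far from the other 3 by Dixon's test at 95%, and chance gives about 1 in 20. Of these, 8 were in replicate 1 of the cultures. Kif1a was high there in both groups, at 21.8 RPKM in AdCRE (others 5.72 to 7.33) and 10.5 RPKM in AdGFP (others 1.24 to 2.05). Kif5c was low there in both groups, at 4.86 RPKM in AdCRE (others 8.75 to 9.33) and 3.87 RPKM in AdGFP (others 6.80 to 7.28). In AdCRE replicate 1, Kif13a stood at 5.19 RPKM (others 6.23 to 6.31), Kif24 at 1.12 RPKM (others 2.63 to 2.71) and Kifc2 at 1.17 RPKM (others 1.38 to 1.4). In AdGFP replicate 1, Kif3c stood at 7.63 RPKM (others 5.53 to 5.83). In muscle, Kifc1 in Chd4fl/fl replicate 1 was at 7.97 RPKM (others 4.99 to 5.15). Kif21a had a fold change in culture that was 1.53 above that in muscle on the log2 scale, by limma's test of the difference (adjusted p = 0.0236).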

How the results depend on the processing

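In culture 0 kinesins passed without the replicate block under any other setting or with any library left out (0 to 0). With the block 22 passed, also with TPM scaling, and 23 with quantile scaling; with pair 1, 2, 3 or 4 left out as well, 22, 18, 19 and 16 passed. The mitotic count was 12 in each of these block fits (12 to 12). In muscle, without the filter, 4 kinesins passed and 0 mitotic ones, with more genes tested; with a library left out, 4 to 9 kinesins and 0 to 5 mitotic ones passed. Kif13a, Kif1c and Kif21a passed with each of the 8 libraries left out. The muscle numbers do not pair; with the block Kif2c (adjusted p = 0.0513) and Kif26b (0.0742) missed the threshold and Kif15 passed (0.0395). In the difference of fold changes, 1 kinesin passed, 3 with the block, and 0 to 3 with a library left out. The cause of these shifts was not tested, beyond the smaller number of samples. The median mitotic fold change was -0.95 to -0.43 in culture and -0.67 to -0.35 in muscle with a library left out. Scaling moved the median of all genes by less than 0.1 (-0.07 in muscle with TPM scaling). Low kinesins may rest on few reads, and RPKM does not say how many.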
